A study of Mus musculus with 8 samples.

Results

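The DNA repair genes described here are 55 of the 14861 genes measured by PRO-seq in mouse induced pluripotent stem cells. The rule that picks them uses gene symbols and no measured value, though it was written with earlier results of these data known: the Fanconi anaemia genes Fanca to Fancm, the Rad50 to Rad54 group, Xrcc1 to Xrcc6, Brca1 and Brca2, Brip1, Palb2, Ercc1 to Ercc8, the mismatch repair genes of the Msh and Mlh families, the kinases Atm, Atr, Chek1 and Chek2, and Xpa, Xpc, Parp1 and Parp2. By known role, 12 belong to the Fanconi anaemia pathway, 13 to homologous recombination, 7 to mismatch repair and its MutS and MutL families, 9 to nucleotide excision repair, 6 to end joining and single-strand break repair, and 4 are checkpoint kinases. The other 4 match the pattern by symbol and were set apart from these roles. They are Ercc6l, a helicase-like protein of mitotic chromosomes, Rad54l2, a chromatin remodeller, Fancd2os, a gene on the strand opposite Fancd2, and Ercc6l2, which itself has a known part in the response to broken DNA.

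PRO-seq maps the 3' ends of nascent RNA held by engaged RNA polymerase, so its signal reflects ongoing transcription and not RNA abundance. The cells were a clonal FUCCI2 line, which carries fluorescent reporters of cell cycle phase. Mitotic cells had received nocodazole, a drug that depolymerises microtubules, at 200 ng/ml for 6 h and were collected by shake-off at 0 h. Early G1 cells had been arrested in the same way and released into fresh medium for 1 h, late G1 cells had been released for 3 h, and asynchronous cells were untreated. All 4 groups were grown on irradiated feeder cells with serum, LIF and 2 inhibitors, of MEK and of GSK3, so the asynchronous cells carry those agents too. The study asked how transcription changes after mitotic exit. The names early and late G1 are the table's own, and were matched to 1 h and 3 h by meaning. One clone was used, and all released cells had been exposed to nocodazole.

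Each group has 2 libraries in the labels but 1 column of signal in the table, so every value below is the authors' combined value of a group, with no replicate error. No test could be run. Differences are given as log2 ratios with 0.1 added to both signals, and a gene is counted as higher or lower where the ratio reached 2-fold. Such a count has no replicate check. Whether the signal was divided by gene length is not stated, so levels are compared between groups within a gene and not between genes.

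DNA repair is divided by lesion. Nucleotide excision repair cuts out bulky adducts, mismatch repair corrects copying errors behind the replication fork, end joining and homologous recombination mend double-strand breaks, and the Fanconi anaemia pathway unhooks crosslinks between strands. Homologous recombination copies a sister chromatid and is therefore active mainly after replication, whereas end joining can act in G1. Pluripotent stem cells of the mouse have a short G1 phase and are known to express many repair and replication genes at high levels.

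Over all genes, the column totals were 16863 in mitosis, 361203 at early G1, 326086 at late G1 and 309144 in asynchronous cells, so the mitotic values rest on low signal. Of 12 listed pluripotency genes 11 were in the table, Pou5f1, Sox2 and Nanog among them, and they summed to 71.5 in mitosis, 1725 at early G1, 1590 at late G1 and 1703 in asynchronous cells, with none at 0. Of 20 listed fibroblast genes, which could come from the feeders, 12 were in the table and summed to 5.09 in mitosis, 153 at early G1, 144 at late G1 and 96.4 in asynchronous cells. Fn1 alone had 3.26 in mitosis, 106 at early G1, 61.3 at late G1 and 53.4 in asynchronous cells, and the median of the 12 was 0.0946 in mitosis, 2.22 at early G1, 6.03 at late G1 and 3.69 in asynchronous cells. The early G1 sum was thus above the asynchronous sum and the early G1 median below the asynchronous median. S100a4 and Twist1 were at 0 in mitosis. In late over early G1 6 of these 12 were at least 2-fold higher, or 50%, beside 15.1% of all genes, and 0 were lower, beside 7.52%. Their part in the results on repair genes was not tested. A lower signal from fewer cells of a type and from less transcription per cell cannot be told apart.

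In arrested mitosis every one of the 55 repair genes was lower than in asynchronous cells. All 55 were at least 2-fold lower, where 99.1% of all tested genes were, and none was at least 2-fold higher, where 0.0208% of all genes were. The median of their log2 ratios was -3.92, beside -3.89 over all genes, which leaves a median of 5.39% of the asynchronous signal for the repair genes and 5.31% for all genes. None was at 0. The remaining signal ran between 1.58% of the asynchronous value for Fancf, whose product is a core complex adaptor, and 11.8% for Ercc5, the nuclease that cuts on the 3' side of a bulky lesion. Fancf, Rad50 and Xrcc6 had the lowest log2 ratios, at -5.90, -5.15 and -4.68. Ercc5, Xrcc4 and Fancd2os had the highest, at -2.91, -3.00 and -3.25. The ratio of Xrcc4, the scaffold of DNA ligase IV, is pulled up by the added 0.1, since its mitotic signal was only 0.0999. Without that addition it kept 6.67% of its asynchronous signal of 1.5, just above the upper quartile of the repair genes, 6.60%.

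One hour after release, all 55 genes exceeded their mitotic signal by 2-fold or more, where 99.3% of all genes were, and none was at least 2-fold lower, where 0.00692% of all genes were. Their median log2 ratio was 4.31, beside 4.21 over all genes. Set against asynchronous cells, the early G1 signal had a median of 124% over the repair genes, beside 124% over all genes. At 100% or more were 38 of 55, or 69.1%, beside 63.4% of all genes, and under 50% were 2, or 3.64%, beside 10.5% of all genes.

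Early G1 differed from asynchronous cells by 2-fold or more in 7 repair genes. Fancm, Ercc5, Msh4, Xrcc1 and Msh3 were higher, 5 of 55 or 9.09%, where 17.7% of all genes were. Brca2 and Fancd2os were lower, 2 of 55 or 3.64%, where 9.53% of all genes were. The median log2 ratio was 0.31, beside 0.30 over all genes, and the middle 50% of the repair genes lay between -0.09 and 0.67, a narrower band than the -0.31 to 0.82 of all genes. The whole column is higher than the asynchronous one by that median of 0.30. With the columns set to equal medians, Ercc5, Msh4, Xrcc1 and Msh3 came under 2-fold and Fancm alone remained, so that the count was 1 higher and 2 lower, where all genes had 8.71% higher and 14.9% lower.

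Late G1 differed from early G1 by 2-fold or more in 5 repair genes. Fancd2os, Msh5, Brca2 and Fancd2 were higher, 4 of 55 or 7.27%, where 15.1% of all genes were. Fancm was lower, 1 of 55 or 1.82%, where 7.52% of all genes were. The median log2 ratio was -0.08 for the repair genes and -0.08 for all genes. With the minimum mean signal raised to 2.5, 10.3% of all genes were higher and 7.94% lower, and the repair genes again had 4 higher and 1 lower.

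Late G1 differed from asynchronous cells by 2-fold or more in 3 repair genes, Ercc5, Xrcc1 and Msh5, all of them higher. That is 5.45%, where 16.9% of all genes were higher. No repair gene was lower, where 5.14% of all genes were. The middle 50% of the repair genes lay between -0.02 and 0.54 on the log2 scale, beside -0.23 to 0.73 for all genes. In each of the 3 comparisons among released and asynchronous cells, the repair genes thus had smaller shares past 2-fold than the table as a whole, and medians close to it.

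**Figure D1:**
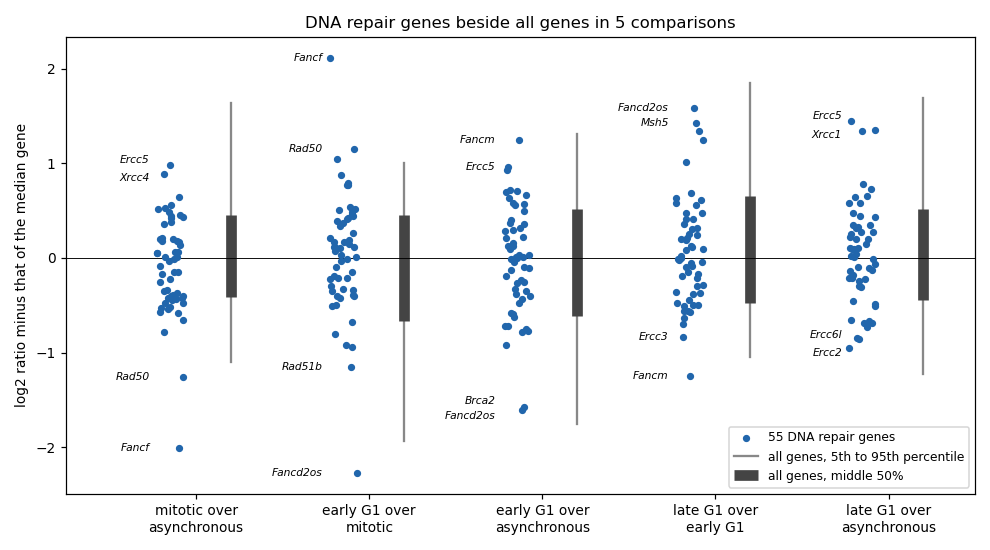
Log2 ratios of the 55 DNA repair genes in 5 comparisons, each minus the ratio of the median gene (points), beside the middle 50% (bar) and the 5th to 95th percentile (line) of all genes. The repair genes lie around the zero line in every comparison, and those named are the extremes, such as Fancm above and Brca2 below in early G1 over asynchronous cells. Points are spread sideways only to keep them apart.

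The promoters of 4 genes past 2-fold in at least 1 comparison after release are shown, chosen after their values were seen. In 3 of them the printed window holds TTTNNCGC, an E2F-type pattern with N for any base, called the E2F motif here. The other, Fancm, does not hold it. E2F factors are the main transcriptional regulators of the G1 to S transition. The sequences are RefSeq's for GRCm38.p6, 5' to 3' on the gene's strand, in lower case with capitals for matches to the E2F motif or to TTTGAA, the CHR motif of genes used in late cell cycle phases, on either strand. Brca2 lies at chr5:150522371-150522670 on the plus strand, Ercc5 at chr1:44147494-44147793 on the plus strand, Msh5 at chr17:35046573-35046872 on the minus strand and Fancm at chr12:65075353-65075652 on the plus strand.
Brca2: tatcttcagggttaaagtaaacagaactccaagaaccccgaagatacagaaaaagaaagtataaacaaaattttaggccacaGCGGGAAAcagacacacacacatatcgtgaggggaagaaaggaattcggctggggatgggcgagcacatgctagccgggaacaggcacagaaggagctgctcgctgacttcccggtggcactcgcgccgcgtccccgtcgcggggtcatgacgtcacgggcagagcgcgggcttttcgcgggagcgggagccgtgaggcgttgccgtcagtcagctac
Ercc5: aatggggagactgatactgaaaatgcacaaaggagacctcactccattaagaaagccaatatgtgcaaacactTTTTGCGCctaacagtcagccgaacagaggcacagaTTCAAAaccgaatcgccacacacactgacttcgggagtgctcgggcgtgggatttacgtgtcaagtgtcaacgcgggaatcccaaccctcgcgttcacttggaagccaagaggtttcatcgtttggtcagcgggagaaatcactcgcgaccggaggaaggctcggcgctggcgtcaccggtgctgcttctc
Msh5: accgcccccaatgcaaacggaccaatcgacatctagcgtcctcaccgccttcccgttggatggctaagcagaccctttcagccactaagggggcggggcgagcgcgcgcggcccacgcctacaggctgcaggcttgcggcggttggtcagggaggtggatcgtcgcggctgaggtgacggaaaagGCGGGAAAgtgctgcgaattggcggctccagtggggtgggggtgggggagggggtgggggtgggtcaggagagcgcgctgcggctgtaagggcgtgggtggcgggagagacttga
Fancm: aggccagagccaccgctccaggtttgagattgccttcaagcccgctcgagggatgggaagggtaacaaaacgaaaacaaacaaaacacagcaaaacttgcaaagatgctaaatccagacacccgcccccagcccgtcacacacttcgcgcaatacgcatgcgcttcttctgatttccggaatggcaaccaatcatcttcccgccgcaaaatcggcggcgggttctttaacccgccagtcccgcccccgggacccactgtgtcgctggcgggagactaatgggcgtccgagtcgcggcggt
Brca2 and Msh5 each hold 1 E2F match, Ercc5 holds 1 E2F and 1 CHR match, and Fancm holds neither. Ercc5 with a match and Fancm without one were both over 2-fold higher in early G1 than in asynchronous cells. Fancd2os, with no match, was lower in early G1 and higher in late over early G1, as Brca2 was. Whether the motif bears on the signal was not tested.

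An entry was found for 43 of the 55 repair genes, and 39 lay within 150 bases of the start given in the table. Windows ran from 250 bases before to 50 bases after the start, both strands were searched, and the motifs were counted separately, so that 1 stretch may count for several. TTTNNCGC was present in 10 of the 39 promoters, or 25.6%, beside 8.63% of the 9154 promoters of table genes. The 10 are Brca2, Brip1, Chek2, Ercc5, Ercc6l2, Msh3, Msh5, Msh6, Rad51c and Xrcc6. CCAAT, the binding motif of NF-Y, was present in 24 of the 39, or 61.5%, beside 39.0% of all. TTTGAA was present in 2, or 5.13%, beside 11.1% of all, and the decamer of the p53 response element in 3, or 7.69%, beside 7.08%. The late G1 over asynchronous ratio had a median of 0.51 in the 10 genes with the E2F motif and of 0.14 in the 29 without it, with ranges of -0.25 to 1.66 and of -0.74 to 0.99 that overlap over most of their length. In early G1 over asynchronous cells the medians were 0.36 and 0.29. A match describes letters only, not a bound factor.

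**Figure D2:**
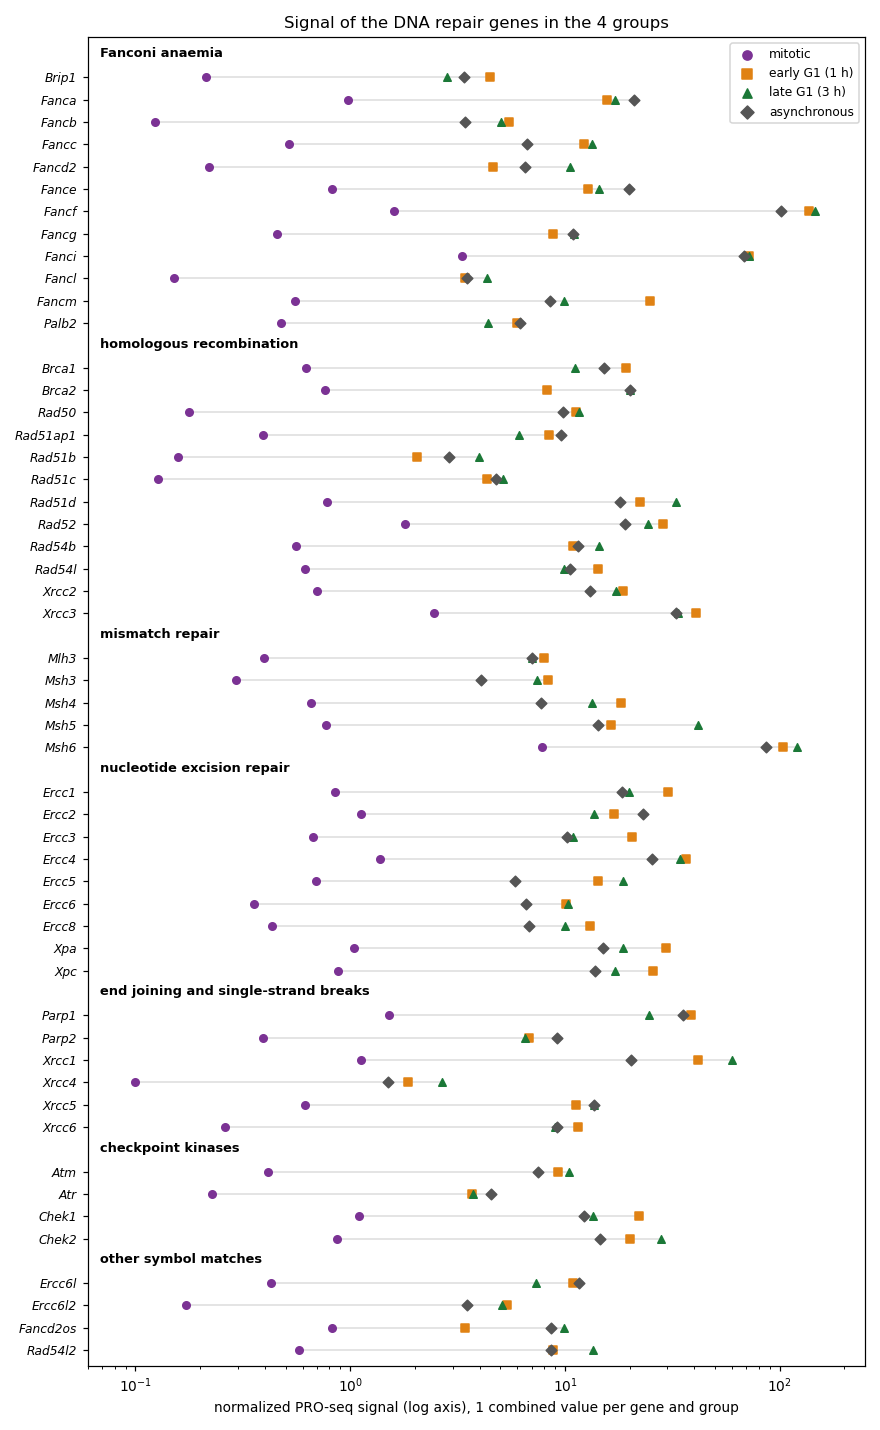
PRO-seq signal of the DNA repair genes described singly, in mitotic, early G1, late G1 and asynchronous cells, on a log axis, 1 point per group, with genes arranged by role. Every gene's mitotic point lies far to the left of its other 3 points, which sit close together except in genes such as Fancm, Brca2, Ercc5 and Msh5.

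The Fanconi anaemia core complex is a ubiquitin ligase that marks the Fancd2 and Fanci pair at a blocked fork. Its adaptor Fancf had a signal of 1.6 in mitosis, 136 at early G1, 147 at late G1 and 102 in asynchronous cells. Fancf thus had a larger contrast between mitosis and the other groups than any other repair gene, with a log2 ratio of 6.33 for early G1 over mitosis. It overlaps and diverges from Gas2, whose start is 160 bp away, and strand use in the counting is not given, so their signals may be shared. The core member Fanca had 0.978 in mitosis, 15.7 at early G1, 17.1 at late G1 and 21 in asynchronous cells. Another core member, Fance, had 0.823 in mitosis, 12.9 at early G1, 14.4 at late G1 and 19.8 in asynchronous cells. Both were below the asynchronous value in early and late G1, with late G1 over asynchronous log2 ratios of -0.29 and -0.46. Fancg, also of the core, had 0.455 in mitosis, 8.76 at early G1, 11 at late G1 and 11 in asynchronous cells. Fancl, the catalytic subunit of the ligase, had 0.151 in mitosis, 3.44 at early G1, 4.36 at late G1 and 3.5 in asynchronous cells. Neither was past 2-fold of its asynchronous level after release. Fancb and Fancc, like Fancf, were above asynchronous cells at both times. Fancb had 0.123 in mitosis, 5.51 at early G1, 5.05 at late G1 and 3.41 in asynchronous cells. Fancc had 0.52 in mitosis, 12.3 at early G1, 13.4 at late G1 and 6.69 in asynchronous cells. For Fancc the log2 ratio over asynchronous cells was 0.87 in early and 0.99 in late G1, just short of 2-fold in the late group.

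Fancm, the DNA translocase that recruits the core complex to chromatin, had a different course. Its signal was 0.554 in mitosis, 25 at early G1, 9.86 at late G1 and 8.48 in asynchronous cells. The early G1 value stood 2.93-fold above the asynchronous value, the largest such ratio among the repair genes, with a log2 ratio of 1.55. Late G1 lay close to asynchronous cells again, with a log2 ratio of -1.33 over early G1. The gene lies at chr12:65074110-65131842 in the RefSeq annotation of GRCm38.p6, its promoter is printed above, and no other RefSeq gene overlaps it. Its early excess was also at least 2-fold with equal medians and with quantile normalization.

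Fancd2, the substrate of the core complex, had 0.221 in mitosis, 4.64 at early G1, 10.5 at late G1 and 6.53 in asynchronous cells. Its early G1 value was below the asynchronous one and its late G1 value above, with a late over early log2 ratio of 1.17. Its partner Fanci had 3.3 in mitosis, 71.6 at early G1, 71.9 at late G1 and 68.4 in asynchronous cells, nearly level across the 3 groups outside mitosis. Fancd2 and Fanci, which act as a pair, thus differed in their course within these columns. Fanci overlaps Polg, the gene of the mitochondrial polymerase, and Fancd2 overlaps Fancd2os. Fancd2os had 0.819 in mitosis, 3.42 at early G1, 9.9 at late G1 and 8.62 in asynchronous cells, a late over early log2 ratio of 1.505, and its start is 69.0 kb from that of Fancd2. The table does not show whether the 2 signals were separated by strand.

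Brip1, a helicase bound by Brca1, and Palb2, which joins Brca1 to Brca2, are the Fanconi genes closest to recombination. Brip1 had 0.214 in mitosis, 4.47 at early G1, 2.82 at late G1 and 3.38 in asynchronous cells. Palb2 had 0.474 in mitosis, 5.98 at early G1, 4.39 at late G1 and 6.17 in asynchronous cells. Late G1 was the lowest of the 3 groups outside mitosis for each of them. As a group, the 12 Fanconi genes had a median log2 ratio over asynchronous cells of 0.02 in early and 0.14 in late G1. The medians of all genes were 0.30 and 0.21. Of the 12, 1 was at least 2-fold higher in early G1, or 8.33% beside 17.7% of all genes.

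Homologous recombination is led by Brca1 and Brca2, the 2 proteins that prepare broken ends for strand exchange. Brca2 had a signal of 0.766 in mitosis, 8.27 at early G1, 19.99 at late G1 and 20.2 in asynchronous cells. Its early G1 value was 41% of the asynchronous value and its late G1 value 99.1%, so that Brca2 had the lowest early recovery of any repair gene except Fancd2os, which was at 39.7%. The log2 ratio was -1.28 for early G1 over asynchronous cells and 1.26 for late over early G1. Brca1 went the other way, with 0.623 in mitosis, 19.1 at early G1, 11.2 at late G1 and 15.2 in asynchronous cells, its highest value in early and its lowest value outside mitosis in late G1. Brca2 occupies chr5:150522297-150570147 and overlaps 3 predicted RefSeq genes of unnamed function, while no RefSeq gene overlaps Brca1.

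Rad51b, Rad51c, Rad51d, Xrcc2 and Xrcc3 belong to 1 protein family that assists strand exchange, and they did not share 1 course. Rad51d had 0.782 in mitosis, 22.4 at early G1, 33 at late G1 and 18 in asynchronous cells, highest in late G1. Rad51b had 0.157 in mitosis, 2.04 at early G1, 3.98 at late G1 and 2.87 in asynchronous cells, lowest outside mitosis in early G1. Rad51c had 0.128 in mitosis, 4.35 at early G1, 5.13 at late G1 and 4.78 in asynchronous cells, close to asynchronous cells at both times after release. Xrcc2 had 0.704 in mitosis, 18.7 at early G1, 17.3 at late G1 and 13.1 in asynchronous cells. Its relative Xrcc3 had 2.46 in mitosis, 40.8 at early G1, 33.7 at late G1 and 33 in asynchronous cells. Late G1 was lower than early G1 in both, by small ratios. Xrcc3 overlaps Klc1, a kinesin light chain gene.

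The other recombination genes kept within 2-fold of asynchronous cells after release. Rad50, part of the complex that senses broken ends, had only 1.81% of its asynchronous signal in mitosis, with values of 0.177 in mitosis, 11.3 at early G1, 11.6 at late G1 and 9.75 in asynchronous cells. Rad52, an annealing protein, had 1.8 in mitosis, 28.6 at early G1, 24.5 at late G1 and 19.1 in asynchronous cells. Rad54l, a motor protein that remodels protein filaments on DNA, had 0.617 in mitosis, 14.3 at early G1, 9.9 at late G1 and 10.6 in asynchronous cells. Its relative Rad54b had 0.557 in mitosis, 10.9 at early G1, 14.4 at late G1 and 11.5 in asynchronous cells. Rad54l was highest in early and Rad54b in late G1. Rad51ap1, an accessory protein of strand exchange, had 0.393 in mitosis, 8.45 at early G1, 6.11 at late G1 and 9.56 in asynchronous cells and was the recombination gene with the lowest late G1 level relative to asynchronous cells, at 63.9%. Over the 13 genes the median log2 ratio over asynchronous cells was 0.31 in early and 0.25 in late G1. In early G1 0 were at least 2-fold higher, beside 17.7% of all genes, and 1 was lower, or 7.69% beside 9.53%. In late G1 0 passed 2-fold in either direction, beside 16.9% of all genes higher and 5.14% lower.

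Nucleotide excision repair was the role with the highest median in early G1. Its 9 genes had a median log2 ratio of 0.88 over asynchronous cells, beside 0.30 for all genes, and 8 of the 9 were above the median gene. In late G1 the median was 0.32, beside 0.21 for all genes, and late over early G1 had a median of -0.38 beside -0.08. Only Ercc5 passed 2-fold over asynchronous cells, so that 1 of 9, or 11.1%, was higher in early and 1 of 9 in late G1. Over all genes 17.7% were higher in early and 16.9% in late G1.

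Xpc is the sensor of distorted DNA and Xpa the scaffold of the incision complex. Xpc had 0.88 in mitosis, 25.7 at early G1, 17.1 at late G1 and 13.9 in asynchronous cells. Xpa had 1.04 in mitosis, 29.6 at early G1, 18.7 at late G1 and 15 in asynchronous cells. Each was highest in early G1, with log2 ratios over asynchronous cells of 0.88 and 0.97, and lower in late G1, at 0.31 and 0.32. Ercc6 and Ercc8 start the branch that acts on stalled RNA polymerase. Ercc6 had 0.356 in mitosis, 10.1 at early G1, 10.4 at late G1 and 6.61 in asynchronous cells. Ercc8 had 0.433 in mitosis, 13.1 at early G1, 10.02 at late G1 and 6.79 in asynchronous cells. Both were above asynchronous cells, with early G1 log2 ratios of 0.60 and 0.93. Ercc8 shares a promoter region with Ndufaf2, whose start is 148 bp away on the opposite strand.

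Ercc3 and Ercc2 are the helicases of TFIIH, a complex that serves both repair and the start of transcription. Ercc3 had 0.67 in mitosis, 20.6 at early G1, 10.9 at late G1 and 10.3 in asynchronous cells, so that early G1 stood 2.0-fold above asynchronous cells, just under the 2-fold limit, and late G1 was level with them. Ercc2 had 1.12 in mitosis, 16.8 at early G1, 13.7 at late G1 and 23 in asynchronous cells, below asynchronous cells in both released groups and the exception among the 9 genes. The 2 helicases of 1 complex thus had log2 ratios of 1.00 and -0.45 in early G1. Ercc2 overlaps Klc3 and its start is 36.9 kb from that of Ercc1 on chromosome 7.

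Ercc1 and Ercc4 form the nuclease that cuts 5' of a lesion, and Ercc5 cuts 3' of it. Ercc1 had 0.851 in mitosis, 30.1 at early G1, 19.9 at late G1 and 18.4 in asynchronous cells. Ercc4 had 1.38 in mitosis, 36.6 at early G1, 34.5 at late G1 and 25.5 in asynchronous cells. These partners had early G1 log2 ratios of 0.71 and 0.52, and in late G1 Ercc1 was lower, at 0.11, than Ercc4, at 0.43. Ercc5 had 0.69 in mitosis, 14.2 at early G1, 18.7 at late G1 and 5.84 in asynchronous cells. It was the repair gene with the highest late G1 level relative to asynchronous cells, 319%, after 243% in early G1. It was also the one with the largest share left in mitosis. Ercc5 lies at chr1:44146948-44181260, and no other RefSeq gene overlaps it.

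Mismatch repair binds mispairs and then cuts the new strand. Msh6, a subunit that recognises base mismatches, had 7.84 in mitosis, 103 at early G1, 121 at late G1 and 86 in asynchronous cells. Msh3, which recognises small loops, had 0.293 in mitosis, 8.3 at early G1, 7.41 at late G1 and 4.06 in asynchronous cells. Msh6 was highest in late G1, while Msh3 was 2.02-fold above asynchronous cells in early G1, at the edge of the threshold. Mlh3, of the cutting step, had 0.399 in mitosis, 7.97 at early G1, 7.03 at late G1 and 7.03 in asynchronous cells, close to asynchronous cells after release.

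Msh4 and Msh5 are MutS family members like the other Msh proteins, and form a pair known mainly from meiotic crossing over. Msh4 had 0.654 in mitosis, 18.3 at early G1, 13.4 at late G1 and 7.7 in asynchronous cells, 2.35-fold above asynchronous cells in early G1. Msh5 had 0.769 in mitosis, 16.3 at early G1, 41.6 at late G1 and 14.2 in asynchronous cells, close to asynchronous cells in early G1 and 2.92-fold above them in late G1. The partners thus peaked at different times. The 6 listed meiotic germ cell genes in the table, such as Sycp3 and Stra8, summed to 1.51 in mitosis, 25.8 at early G1, 40.4 at late G1 and 23.0 in asynchronous cells. In late G1 over asynchronous cells 4 of the 6 were at least 2-fold higher, or 66.7% beside 16.9% of all genes. In that comparison 1 was lower, or 16.7% beside 5.14%. The median signal of these 6 genes was 3.09 in asynchronous cells. Their part in the signal of Msh4 and Msh5 was not tested. Msh5 lies at chr17:35028605-35046997 and overlaps 1 predicted RefSeq gene. The 7 mismatch repair genes had a median log2 ratio over asynchronous cells of 0.26 in early and 0.49 in late G1.

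End joining begins with the Ku pair, Xrcc5 and Xrcc6, which clamps a broken end. Xrcc5 had 0.615 in mitosis, 11.2 at early G1, 13.7 at late G1 and 13.6 in asynchronous cells. Xrcc6 had 0.262 in mitosis, 11.5 at early G1, 8.96 at late G1 and 9.15 in asynchronous cells. Neither moved far after release, with log2 ratios over asynchronous cells of -0.28 and 0.33 in early and 0.00 and -0.03 in late G1. Xrcc4 had 0.0999 in mitosis, 1.85 at early G1, 2.67 at late G1 and 1.5 in asynchronous cells, with its highest value in late G1.

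Single-strand breaks are sensed by Parp1 and Parp2, which make chains of ADP-ribose that attract the scaffold Xrcc1. Xrcc1 had 1.12 in mitosis, 41.5 at early G1, 60.1 at late G1 and 20.3 in asynchronous cells. Both released groups were above asynchronous cells, 2.04-fold in early and 2.95-fold in late G1, and no other RefSeq gene overlaps it at chr7:24546699-24573438. Parp1 had 1.52 in mitosis, 38.6 at early G1, 24.7 at late G1 and 35.6 in asynchronous cells, near asynchronous cells in early G1 and at 69.5% of them in late G1. Parp2 had 0.394 in mitosis, 6.83 at early G1, 6.53 at late G1 and 9.14 in asynchronous cells, below asynchronous cells at both times. The scaffold and the 2 sensors thus went in opposite directions relative to asynchronous cells in late G1. The 6 genes of end joining and single-strand repair had median log2 ratios of 0.20 in early and -0.01 in late G1.

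The checkpoint kinases Atm and Atr respond to broken ends and to exposed single strands, and activate Chek2 and Chek1. Atm had 0.412 in mitosis, 9.31 at early G1, 10.5 at late G1 and 7.46 in asynchronous cells. Chek2 had 0.868 in mitosis, 20.1 at early G1, 28.1 at late G1 and 14.6 in asynchronous cells. Both kinases of the break branch were highest in late G1, and Chek2 was 1.92-fold above asynchronous cells there. Atr had 0.227 in mitosis, 3.7 at early G1, 3.73 at late G1 and 4.54 in asynchronous cells, highest in asynchronous cells. Chek1 had 1.09 in mitosis, 22.2 at early G1, 13.5 at late G1 and 12.2 in asynchronous cells, highest in early G1 and close to asynchronous cells in late G1. Atm shares a promoter region with Npat, a regulator of histone genes, whose start is 439 bp away. None of the 4 kinases passed 2-fold in the comparisons among released and asynchronous cells. Their median log2 ratios over asynchronous cells were 0.39 in early and 0.31 in late G1.

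Among the 4 genes set apart, Ercc6l had 0.426 in mitosis, 10.9 at early G1, 7.35 at late G1 and 11.6 in asynchronous cells, with late G1 at 63.3% of asynchronous cells. Ercc6l2 had 0.172 in mitosis, 5.38 at early G1, 5.09 at late G1 and 3.48 in asynchronous cells, and its start is 383 kb from that of Fancc on chromosome 13. Rad54l2 had 0.577 in mitosis, 8.81 at early G1, 13.5 at late G1 and 8.58 in asynchronous cells, highest in late G1. Without these 3 and Fancd2os, the count of genes at least 2-fold lower in early G1 than in asynchronous cells was 1, Brca2, and the late over early G1 count was 3 higher. The other counts of released over asynchronous cells did not change.

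**Figure D3:**
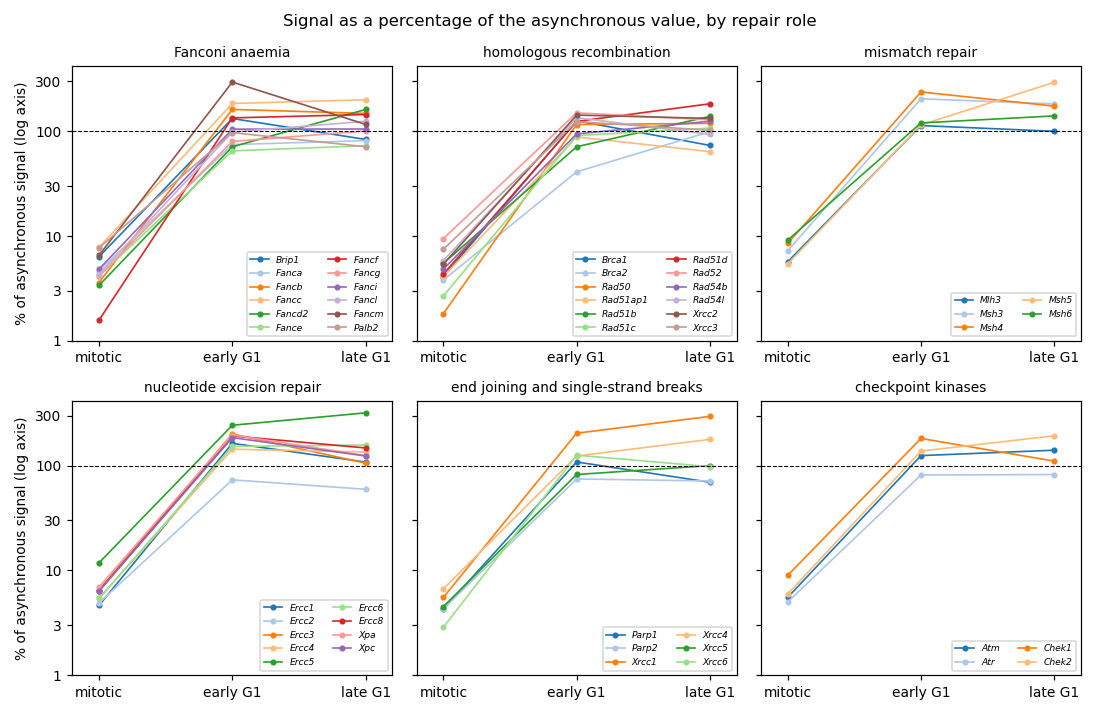
Signal of the DNA repair genes described singly, in mitotic, early G1 and late G1 cells as a percent of the asynchronous signal, on a log axis, with lines joining the points of a gene and the dashed line at 100%. Each panel is a role, and the 4 genes set apart from these roles are not drawn. In mitosis all lie between 1.58% and 11.8%, and after release most lie around 100%. In early G1 the nucleotide excision repair genes except Ercc2 lie above it, as do all the mismatch repair genes drawn. At 100% or more in early G1 were 63.4% of all genes.

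A wider set of 109 repair genes outside the symbol pattern, listed by hand from textbook roles, was set beside the 55. In early G1 over asynchronous cells 17 were at least 2-fold higher, or 15.6% beside 17.7% of all genes, and 5 lower, or 4.59% beside 9.53%, with a median log2 ratio of 0.31. In late G1 over asynchronous cells 8 of 108 were higher, or 7.41% beside 16.9%, and 4 lower, or 3.70% beside 5.14%, with a median of 0.07. The 14 further genes of nucleotide excision repair had an early G1 median of 0.86, with 12 above the median gene, and 5 at least 2-fold higher: Ccnh, Ddb1, Rad23b, Uvssa and Xab2. Ddb1, a damage sensor subunit, had 2.95 in mitosis, 88.6 at early G1, 48.8 at late G1 and 38.3 in asynchronous cells, and Ccnh, the cyclin of TFIIH, had 0.306 in mitosis, 12.47 at early G1, 6.25 at late G1 and 5.04 in asynchronous cells. Their late G1 median was 0.19, close to that of all genes. In both sets of nucleotide excision genes the early G1 median was thus above that of all genes and the late G1 median was nearer to it.

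The early G1 counts over asynchronous cells that follow stand beside 17.7% of all genes higher and 9.53% lower. Of the 13 further end joining genes 5 were at least 2-fold higher, or 38.5%, and 1 lower, or 7.69%. Nhej1, a partner of Xrcc4, had 0.484 in mitosis, 12 at early G1, 7.33 at late G1 and 1.63 in asynchronous cells, an early log2 ratio of 2.81. Xrcc4 itself had 0.29 in that comparison. Of 10 translesion genes 4 were higher, or 40%, among them Polk, Rev1 and Rev3l, polymerase genes with log2 ratios of 1.69, 1.40 and 1.36. Of 33 further recombination and crosslink genes 3 were higher, or 9.09%, and 1, Ube2t, was lower. Ube2t, the ubiquitin-conjugating enzyme of the Fanconi pathway, had 0.434 in mitosis, 8.39 at early G1, 9.29 at late G1 and 17.8 in asynchronous cells. Among 14 checkpoint signalling genes 0 were higher and 2 lower, or 14.3%: H2afx, the histone variant phosphorylated at breaks, with 26.9 in mitosis, 224 at early G1, 169 at late G1 and 613 in asynchronous cells, and Mdc1, which binds it, with 1.13 in mitosis, 11.1 at early G1, 8.31 at late G1 and 22.9 in asynchronous cells. Of 21 base excision genes 0 were higher and 1 lower, and of 4 further mismatch genes none passed 2-fold in early G1.

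Lists of 3 other processes are given for comparison, with no test of a difference. Their counts over asynchronous cells stand beside 17.7% of all genes higher and 9.53% lower in early G1. In late G1 the shares of all genes were 16.9% higher and 5.14% lower. Of 26 mitosis genes 14 were at least 2-fold lower and 0 higher in early G1, and 17 lower and 0 higher in late G1, with medians of -1.13 and -1.60. Of 25 listed p53 targets 18 were higher and 0 lower in early G1, and 15 higher and 0 lower in late G1, with medians of 1.39 and 1.09. Polk and Ddb2 stand both on a repair list and on the p53 list. The 42 replication genes had 4 higher and 0 lower in early G1 and 2 higher and 0 lower in late G1, with medians of 0.39 and -0.07. The medians of the 55 repair genes, 0.31 and 0.25, lay close to those of all genes, 0.30 and 0.21. In late G1 the median of the replication genes was below that of all genes, and the median of the repair genes was slightly above it. All of these ratios share the asynchronous column.

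**Figure D4:**
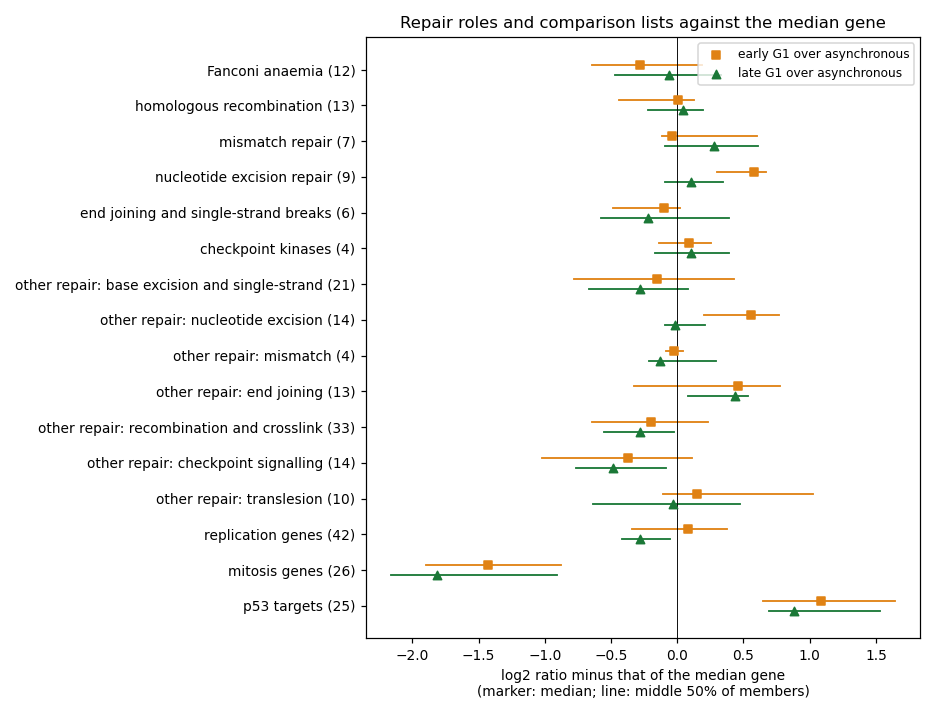
Median (marker) and middle 50% (line) of the log2 ratio of each gene list, minus that of the median gene, for early G1 and late G1 over asynchronous cells. Nucleotide excision repair stands to the right in early G1 in both of its lists, and the other repair roles stay nearer the zero line. The further end joining list also stands to the right, at 0.46 in early and 0.43 in late G1. The checkpoint signalling list stands to the left, at -0.37 and -0.49. Mitosis genes lie to the left and p53 targets to the right.

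The authors' deposited table sorts every gene into 1 of 4 temporal classes. How the classes were made is not stated, and they may rest on the same columns, so they are given as a description. Early_Plateau held 26 of the 55 repair genes, or 47.3%, beside 26.3% of all genes. Early_Spike held 16, or 29.1%, beside 33.6%, Transient held 9, or 16.4%, beside 24.7%, and Gradual held 4, or 7.27%, beside 15.4%. The Gradual genes were Brca2, Ercc2, Fance and Fancd2os. The 9 nucleotide excision genes were split into 6 Early_Spike and 1 in each other class, whereas 8 of 13 recombination genes and 7 of 12 Fanconi genes were Early_Plateau. In that class the repair genes had medians of 107% of the asynchronous signal in early and 100.1% in late G1, beside 108% and 93.4% over all its genes. In Early_Spike they had 183% and 131%, beside 191% and 127%.

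**Figure D5:**
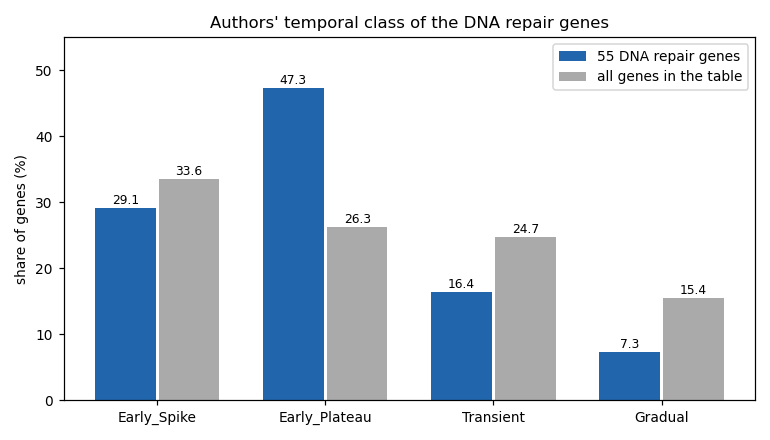
Share of the 55 DNA repair genes and of all 14861 genes in each temporal class of the authors' table, in percent. Early_Plateau holds 47.3% of the repair genes and 26.3% of all genes, and each of the other 3 classes holds a smaller share of the repair genes.

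The repair genes lie on 18 chromosomes. For 14 of them another gene of the table starts within 1 kb, and 13 of these pairs diverge on opposite strands. The partners include Emc3 at 52 bp from Fancd2, Dctn5 at 69 bp from Palb2, Lsm3 at 69 bp from Xpc and Tmem167 at 154 bp from Xrcc4. Of the 13 divergent pairs 4 had the same temporal class, and pairs of unlike class could still have like ratios. Gas2, next to Fancf, had 0.175 in mitosis, 3.16 at early G1, 4.39 at late G1 and 2.92 in asynchronous cells. Its late G1 over asynchronous log2 ratio of 0.57 was close to the 0.53 of Fancf, although Gas2 was Transient and Fancf Early_Plateau. By contrast Emc3, next to Fancd2, had a late over early G1 log2 ratio of -0.69, against 1.17 for Fancd2. In all, 27 of the 55 overlap another RefSeq gene, and for these the signal may include reads of the other gene.

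Longer genes take longer to be crossed by polymerase, so the ratios were also given by RefSeq gene span. In early G1 over asynchronous cells the 16 repair genes under 20 kb had a median log2 ratio of 0.23, the 25 of 20 to 60 kb 0.46, and the 14 of 60 kb or more 0.30, beside 0.17, 0.43 and 0.44 over all genes. In late G1 the medians were 0.13, 0.23 and 0.51, beside 0.05, 0.23 and 0.45 over all genes. In late G1 the longer repair genes thus stood higher relative to asynchronous cells, as did longer genes of the whole table.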

How the data were processed

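The authors deposited 1 table of normalized PRO-seq signal per gene and group. Their scaling, assignment of reads to genes, use of strand and way of combining the 2 libraries of a group were not given in the sources used here. Per the submitters' processing notes, cutadapt, Bowtie2, Picard and SAMtools were used on GRCm38 (mm10). The deposited table also gives each gene a start position, read as 1-based, and a temporal class. Depth is unknown. Genes with a mean signal under 0.5 were left out (47 of 14861), as was any ratio with a column at 0. Ratios are log2((signal + 0.1)/(signal + 0.1)), computed with Python 3.11.15 and pandas 2.3.3, and checked on simulated data. No test was run, since each group is 1 column. The members, by symbol, and the lists were chosen with earlier results of these data known. Fancd2os was set apart from the Fanconi genes after its identity was seen. Named genes were the members, of which 3 are counted in every total but not reported singly here, and genes of other lists past 2-fold with the largest ratios. Alternatives were other pseudocounts, filters, thresholds and scalings. Spans and promoters are RefSeq's for GRCm38.p6.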

Additional observations from a re-analysis of the deposited data

How the results depend on the processing

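The 2-fold counts depended mainly on the scaling of the columns. With equal medians, the repair genes had 1 higher and 2 lower in mitotic over asynchronous cells (9.55% and 6.999% of all genes), 2 higher and 2 lower in early G1 over mitosis (4.95% and 13.7%), and 1 higher in early G1 over asynchronous cells (8.71%), and their median log2 ratio was 0.0557 for mitosis over asynchronous cells and -0.0800 for early G1 over mitosis. With quantile normalization, the counts were 1 higher and 2 lower (8.56% and 6.73% of all genes), 3 higher and 2 lower (5.53% and 8.88%), and 1 higher (9.30%), with 2 lower in late over early G1 (8.25%), and the mitotic over asynchronous median was 0.0312. By construction, both remove the overall difference between columns. At a 1.5-fold threshold, 17 repair genes were higher in early G1 than in asynchronous cells (36.4% of all genes), 8 were lower in late than in early G1 (23.5%), and 12 were higher and 3 lower in late G1 than in asynchronous cells (30.5% and 12.3%). Without the 4 genes set apart from the repair roles, an alternative chosen after seeing the data, 1 was lower in early G1 than in asynchronous cells. In early G1 over asynchronous cells a pseudocount of 0.02 gave 6 higher, with Ercc3 gained, and one of 0.5 gave 4, with Msh3 lost. Under the alternatives, 153 values of single genes already past 2-fold were followed. Of these, 136 stayed on their side of 2-fold, 17 came under it, and none changed direction. They leave out most mitotic ratios, which came under 2-fold with either rescaling, with 1 gene then higher, as the counts above show. With equal medians and with quantile normalization, 16 stayed and 6 came under. Without the low-value filter, or with genes at 0 kept, all 22 stayed, as neither change can alter such a ratio. No paired analysis was possible because the columns combine both libraries of a group and carry no replicate number, and leaving out a replicate was not possible for the same reason. The mitotic signal is low, and depth is unknown, so small mitotic differences between genes have no stated error.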

Other observations

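The following repair genes outside the symbol pattern were picked after their values were seen. In late G1 over asynchronous cells 8 of 108 such genes were at least 2-fold higher, or 7.41%, beside 16.9% of all genes. Shld2, a shieldin subunit that protects broken ends for end joining, had a signal of 0.645 in mitosis, 12.2 at early G1, 19 at late G1 and 5.02 in asynchronous cells, a late G1 over asynchronous log2 ratio of 1.90. Mgmt, which removes alkyl groups from guanine directly, had 0.398 in mitosis, 6.77 at early G1, 18.9 at late G1 and 5.76 in asynchronous cells, with late over early G1 at 1.47. Slx4, a nuclease scaffold of the Fanconi pathway, had 0.0386 in mitosis, 12.2 at early G1, 12.2 at late G1 and 5.28 in asynchronous cells, level between late and early G1 and above asynchronous cells by a log2 ratio of 1.19. Paxx, an end joining factor, was listed at 0 in late G1, with 0.142 in mitosis, 2.27 at early G1 and 7.06 in asynchronous cells. None of these has a replicate check.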
